A study of Mus musculus with 24 samples.

Results

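The expression of 10 genes of the endoplasmic reticulum (ER) stress response and the integrated stress response was followed across the livers of 24 mice, and 9 of the 10 could be measured. They are Atf4, Ddit3, Trib3, Chac1, Asns and Fgf21 of the integrated stress response, Xbp1, Hspa5 and Herpud1 of the unfolded protein response, and Creb3l3. Each gene was read from its brightest probe set, by the mean of 24 arrays, among those paired with that gene alone. Each of the 9 had 1 such probe set, out of 18820 genes in all. Ddit3, which encodes the stress factor CHOP, shares its probe set with its neighbour Mars1, so no Ddit3 level is given.

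Each liver was hybridised to 1 whole-transcript Affymetrix mouse array, and there were 8 groups of 3 mice with different mouse identifiers. Untreated NEMO/JNKΔhepa mice aged 52 weeks, labelled as lacking NEMO, JNK1 and JNK2, were set against mice of that age labelled control. JNKΔhepa mice, labelled as lacking JNK1 and JNK2, were set against mice labelled control, both labelled as treated with the liver carcinogen diethylnitrosamine for 40 days. In another pair they were compared after 28 days of ligation of the bile duct, which dams bile in the liver. Untreated NEMO/JNK1Δhepa mice aged 8 weeks were set against NEMO knockout mice of that age. NEMO, the product of Ikbkg, is needed for IkB kinase to activate NF-kB, and Mapk8 and Mapk9 encode JNK1 and JNK2, kinases activated by stress. Per the labels' protocols, the mice carried Alb-Cre, which deletes floxed genes under the albumin promoter of hepatocytes, and the JNKΔhepa line combined floxed Jnk1 with Jnk2-/- alleles, so that its JNK2 loss is not limited to hepatocytes. No label gives an age for the ligated or diethylnitrosamine-treated mice.

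In the ER, misfolded proteins activate sensors that raise chaperones and degradation factors, partly through the transcription factor XBP1. The sensor kinase PERK, like other kinases that sense amino acid shortage, heme shortage or viral RNA, phosphorylates the initiation factor eIF2alpha, which lowers general protein synthesis and favours translation of ATF4. ATF4 then raises genes of amino acid supply and of feedback, and in liver also the hormone FGF21. ATF4 and XBP1 are controlled largely by translation and by splicing, and a level of total mRNA on an array reads neither.

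The promoters of 5 of these genes are shown because the stress response is known to act on them through short motifs. Asns, Fgf21, Trib3 and Herpud1 are the members whose group means differed most, and Hspa5 is shown for its ER stress element. Each window runs 5′ to 3′ from 250 bases before the start of the gene through its first 50 bases, in the GRCm38.p6 sequence of RefSeq. Capitals mark matches, on either strand, to the C/EBP-ATF response element TGATGNAA, bound by ATF4 with a C/EBP partner, to the ER stress response element, which is CCAAT and CCACG with 9 free bases between them, or to its second form, ATTGG and CCACG with 1 free base between them. The Fgf21 window is chr7:45615441-45615740 on the minus strand, that of Trib3 chr2:152344011-152344310 on the minus strand and that of Asns chr6:7693160-7693459 on the minus strand. The Herpud1 window is chr8:94386179-94386478 and the Hspa5 window chr2:34771840-34772139, both on the plus strand.
Fgf21: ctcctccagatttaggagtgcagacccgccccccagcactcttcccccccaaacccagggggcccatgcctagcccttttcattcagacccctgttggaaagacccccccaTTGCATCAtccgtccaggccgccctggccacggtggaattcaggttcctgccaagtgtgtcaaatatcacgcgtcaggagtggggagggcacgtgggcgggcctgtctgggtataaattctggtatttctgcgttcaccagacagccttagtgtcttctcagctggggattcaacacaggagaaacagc
Trib3: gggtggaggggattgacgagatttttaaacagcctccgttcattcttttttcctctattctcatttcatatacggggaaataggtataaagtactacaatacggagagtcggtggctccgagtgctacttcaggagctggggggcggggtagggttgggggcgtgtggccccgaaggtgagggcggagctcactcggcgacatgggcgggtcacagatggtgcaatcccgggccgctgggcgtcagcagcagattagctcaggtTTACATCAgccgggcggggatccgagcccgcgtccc
Asns: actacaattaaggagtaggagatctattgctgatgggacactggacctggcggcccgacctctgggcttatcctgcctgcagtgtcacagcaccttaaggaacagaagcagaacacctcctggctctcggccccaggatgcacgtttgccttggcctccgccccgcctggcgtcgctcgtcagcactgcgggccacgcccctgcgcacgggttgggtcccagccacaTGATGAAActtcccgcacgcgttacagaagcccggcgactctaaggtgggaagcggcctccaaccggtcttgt
Herpud1: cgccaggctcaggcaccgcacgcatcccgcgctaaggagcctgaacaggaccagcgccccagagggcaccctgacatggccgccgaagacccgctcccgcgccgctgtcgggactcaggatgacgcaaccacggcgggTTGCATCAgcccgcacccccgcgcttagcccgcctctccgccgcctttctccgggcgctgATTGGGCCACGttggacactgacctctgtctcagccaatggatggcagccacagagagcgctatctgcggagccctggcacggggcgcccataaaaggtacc
Hspa5: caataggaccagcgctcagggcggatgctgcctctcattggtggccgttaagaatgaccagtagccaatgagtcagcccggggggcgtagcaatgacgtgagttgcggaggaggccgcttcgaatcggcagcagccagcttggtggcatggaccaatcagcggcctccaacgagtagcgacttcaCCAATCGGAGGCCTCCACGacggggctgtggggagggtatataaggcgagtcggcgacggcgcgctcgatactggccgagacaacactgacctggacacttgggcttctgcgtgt
The C/EBP-ATF letters stood 139 bases before the start in Fgf21, 23 bases before it in Asns and 112 bases before it in Herpud1, and just after the start in Trib3. The ER stress letters began 65 bases before the start of Hspa5, and the second form 52 bases before that of Herpud1. Of all 10 genes, 5 held the C/EBP-ATF letters, namely Asns, Chac1, Fgf21, Herpud1 and Trib3, against 4.51% of 27025 genes with a window in the table. The ER stress element was present in Hspa5 alone among the 10 and in 0.137% of all genes, and its second form in Herpud1 alone and in 0.0444% of all genes. The letters TGACGTGG, a sequence bound by XBP1 and ATF6, were found in 0 of the 10 genes and in 0.714% of all genes. A match describes letters only, and nothing here measured binding. The 10 genes were listed as members of these responses, so the share over all genes is a background and not a test. Letters outside the windows were not searched.

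Array medians over all probe sets were 4.52 to 4.66 on the log2 scale, which the normalisation of the deposited values sets alike. Correlations were 0.966 to 0.987 within groups and up to 0.985 between groups. No separate measure of array quality was used. Mapk8 was lower in all 4 knockout groups, by -0.87 at 52 weeks, -0.64 after diethylnitrosamine, -1.02 after ligation and -0.61 at 8 weeks (log2 differences), and passed the test at 52 weeks and after ligation (limma adjusted p = 0.00259 and 0.0299). Ikbkg fell in NEMO/JNKΔhepa livers (log2 difference -0.85, limma adjusted p = 0.0043). In both 8-week groups Ikbkg read between 6.76 and 7.26, against 6.82 to 7.49 in the 9 livers labelled control. Mapk9 stood between 2.82 and 3.51 in all 18 livers of the other groups, those labelled control included, against 7.99 to 8.53 in the 8-week livers, so the Mapk9 signal was as low in the livers labelled control as in the JNKΔhepa livers beside them. The 8 hepatocyte markers averaged 11.98 to 12.47 in every liver.

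The 9 genes spanned a wide range of levels, and Hspa5, Herpud1, Xbp1 and Creb3l3 were the brightest. Hspa5, the chaperone BiP, averaged 11.47 over all livers, Herpud1, an adaptor of ER-associated degradation, 10.87, Xbp1 9.90 and Creb3l3, a liver transcription factor of the ER membrane, 9.29. Atf4 averaged 7.66. Its targets were dimmer: Fgf21 averaged 6.80, Asns, asparagine synthetase, 6.09, Chac1, an enzyme that breaks down glutathione, 5.78, and Trib3, a pseudokinase that restrains ATF4 and AKT, 5.61. Levels of different probe sets also reflect their probes, so the order between genes is only approximate. The difference between the highest and the lowest group mean was 3.84 for Asns, 1.97 for Fgf21, 1.31 for Trib3 and 1.18 for Herpud1, and it was 0.23 for Atf4, the smallest of the 9. For 5 genes, Atf4, Trib3, Xbp1, Chac1 and Herpud1, every group overlapped the next in the order of means.

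**Figure D1:**
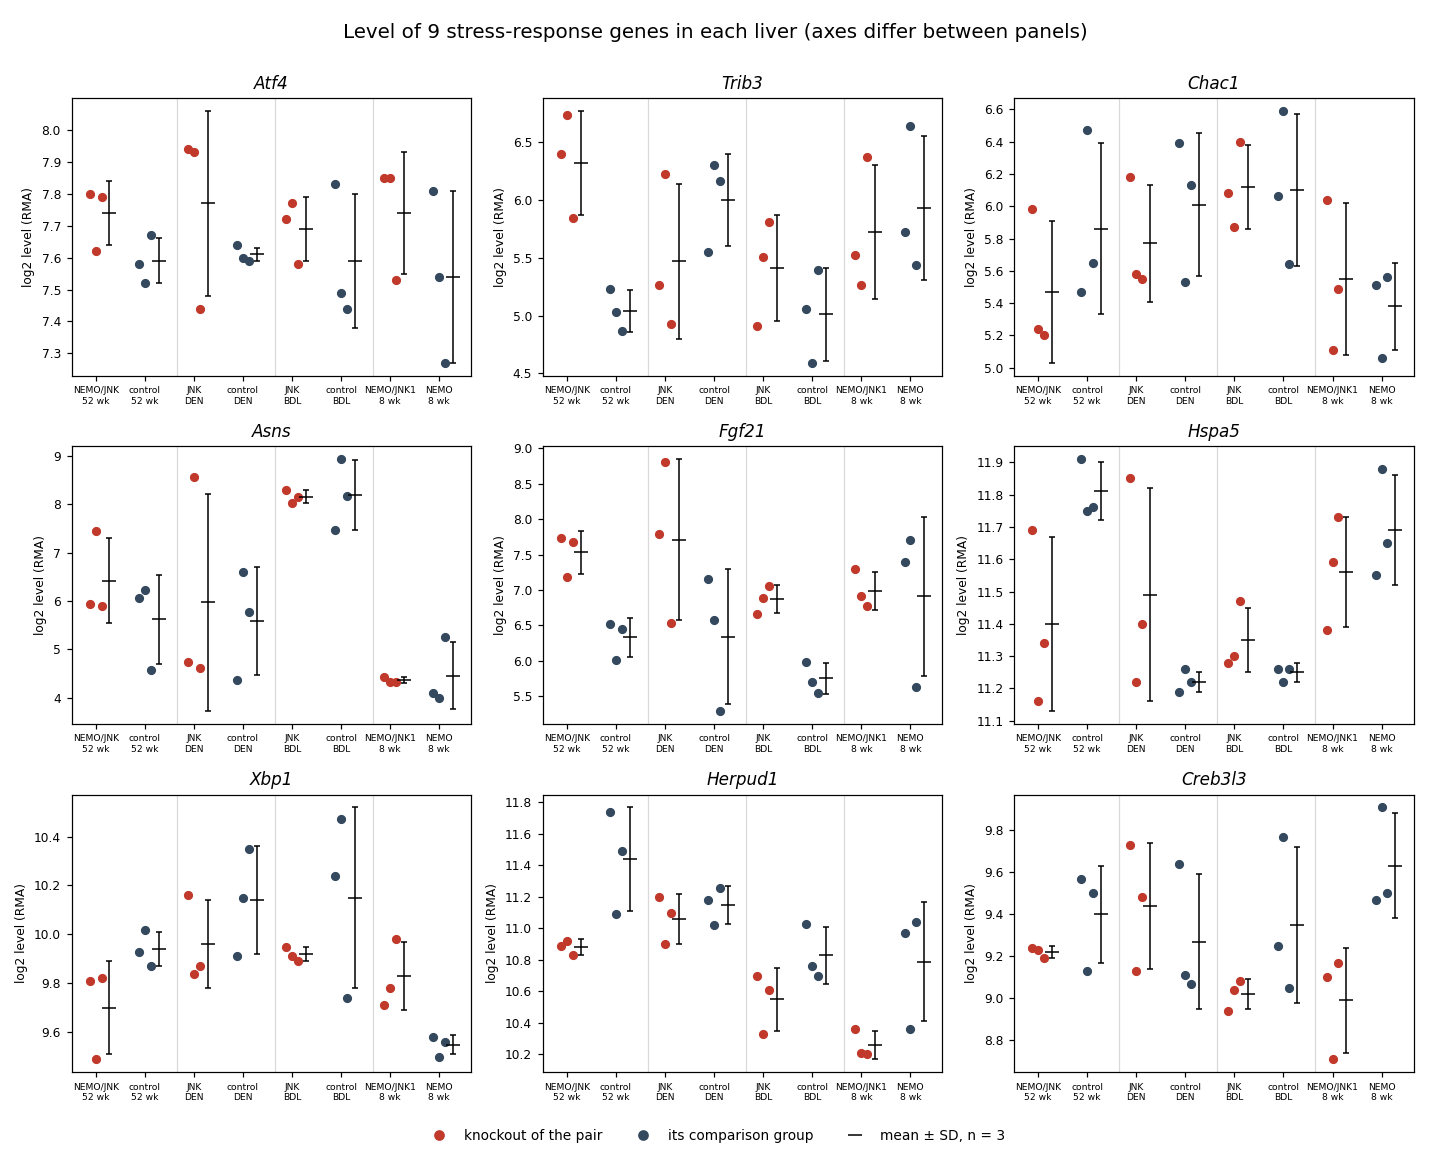
Log2 level of each of the 9 measured genes in each liver (points, with mean ± SD beside them, n = 3), with each knockout group in red left of its comparison group in blue. DEN is diethylnitrosamine, BDL bile duct ligation. Trib3 and Fgf21 lie higher in all NEMO/JNKΔhepa livers than in the 52-week livers labelled control, Fgf21 also in the ligated JNKΔhepa livers. Asns lies at 7.48 or above in all 6 ligated livers, and at 8.56 in JNKΔhepa liver 2 after DEN.

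At 52 weeks, Trib3 and Fgf21 rose in NEMO/JNKΔhepa livers, to 2.43 and 2.30 times the level in livers labelled control, and Herpud1 fell, while Atf4 itself did not pass the test. In that comparison 3 of 9 genes passed an adjusted p of 0.05, beside 21.5% of all 18820 genes, so the count by itself is read only beside that share. Of the 9, 2 were called higher and 1 lower, against 13.6% and 7.90% of all genes.

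Trib3 read 6.40, 6.73 and 5.84 in NEMO/JNKΔhepa livers, against 5.23, 5.03 and 4.87 in livers labelled control. All 3 knockout livers lay above all 3 controls, with a log2 difference of 1.28 (SE 0.22, limma adjusted p = 0.00379). Fgf21 read 7.74, 7.18 and 7.68 in NEMO/JNKΔhepa livers, against 6.52, 6.01 and 6.45 in livers labelled control. Again the groups did not overlap, and the log2 difference was 1.20 (SE 0.19, limma adjusted p = 0.00304). When all 24 arrays shared 1 variance for each gene, the Fgf21 call was lost (limma adjusted p = 0.107).

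Atf4 was at 7.80, 7.62 and 7.79 in NEMO/JNKΔhepa livers, against 7.58, 7.52 and 7.67 in livers labelled control. The groups overlapped, and the log2 difference of 0.15 (SE 0.12, limma adjusted p = 0.394) was close to the spread between livers. Asns was at 5.94, 7.44 and 5.89 in NEMO/JNKΔhepa livers, against 6.07, 6.22 and 4.57 in livers labelled control. One liver of each group stood apart from its group, and the difference of 0.80 (SE 0.51, limma adjusted p = 0.293) did not pass. Chac1 was at 5.98, 5.24 and 5.20 in NEMO/JNKΔhepa livers, against 5.47, 6.47 and 5.65 in livers labelled control, a log2 difference of -0.39 (SE 0.29, limma adjusted p = 0.366). Of the 5 genes on the ATF4 side, 2 passed and 3 did not.

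On the ER side, Herpud1 read 10.89, 10.92 and 10.83 in NEMO/JNKΔhepa livers, against 11.74, 11.09 and 11.49 in livers labelled control. The knockout livers lay close together below all 3 controls, with a log2 difference of -0.56 (SE 0.17, limma adjusted p = 0.0433). That call did not hold without control liver 1 (limma adjusted p = 0.0989), without control liver 3 (0.109) or without NEMO/JNKΔhepa liver 1, 2 or 3 (0.1, 0.0828 and 0.125), and not after quantile normalisation (log2 difference -0.48, limma adjusted p = 0.135). Hspa5 read 11.69, 11.16 and 11.34 in NEMO/JNKΔhepa livers, against 11.91, 11.75 and 11.76 in livers labelled control. Its groups did not overlap, but the log2 difference of -0.41 (SE 0.15) missed the threshold (limma adjusted p = 0.0887), and it passed without NEMO/JNKΔhepa liver 1 (log2 difference -0.56, limma adjusted p = 0.0347). Xbp1 read 9.81, 9.49 and 9.82 in NEMO/JNKΔhepa livers, against 9.93, 10.02 and 9.87 in livers labelled control, also without overlap, with a difference of -0.24 (SE 0.13, limma adjusted p = 0.232). Creb3l3 read 9.24, 9.23 and 9.19 in NEMO/JNKΔhepa livers, against 9.57, 9.13 and 9.50 in livers labelled control, a difference of -0.18 (SE 0.14, limma adjusted p = 0.384). In all, 5 of the 9 genes had groups without overlap, beside 41.2% of all genes.

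The count depended on how the arrays were aligned. With each array centred on its median over the tested genes, the median difference of all genes moved to -0.371, against -0.045 as deposited, and 7 of the 9 genes passed instead of 3, beside 55.9% of all genes under that setting. Trib3 and Fgf21 were then the 2 called higher, and Hspa5, Xbp1, Chac1, Herpud1 and Creb3l3 the 5 called lower. Hspa5 then differed by -0.74 (limma adjusted p = 0.00528), against -0.41 as deposited, where it did not pass. Centring shifts all genes of an array alike, so the change in Hspa5 is that shift and adds no support.

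**Figure D2:**
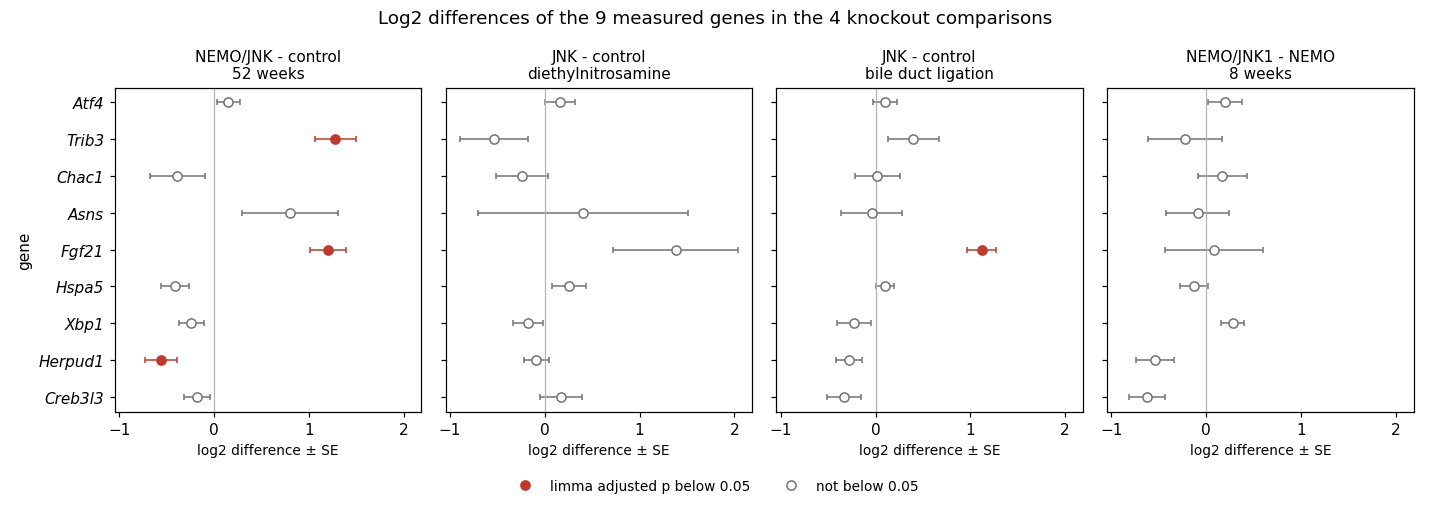
Log2 difference ± SE of the 9 measured genes in the 4 knockout comparisons (n = 3 against 3), with genes past a limma adjusted p of 0.05 filled in red. Trib3, Fgf21 and Herpud1 passed at 52 weeks, Fgf21 alone after ligation, and 0 genes after diethylnitrosamine or at 8 weeks.

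The other genes of these pathways were taken from 7 lists. Of 23 measured targets of the integrated stress response and ATF4, 12 rose and 1 fell, beside 13.6% and 7.90% of all genes, and the list's median difference was 0.62 against -0.045 for all genes (log2). With each array centred 9 were called higher and 6 lower, and with all 24 arrays fitted together 6 and 1. The first of the 12 risers by smallest p were Pck2, mitochondrial phosphoenolpyruvate carboxykinase, Aldh18a1, which starts proline synthesis, and Slc3a2, the heavy chain of amino acid transporters. Pck2 read 6.14, 6.05 and 6.43 in NEMO/JNKΔhepa livers, against 5.17, 5.16 and 5.05 in livers labelled control (log2 difference 1.08, SE 0.13, limma adjusted p = 0.000906). Aldh18a1 rose by 1.22 (SE 0.16, limma adjusted p = 0.00122) and Slc3a2 by 0.68 (SE 0.11, limma adjusted p = 0.00324). The other risers, named after their values were seen, were Nupr1, Psat1, Atf3, Slc7a5, Slc7a1, Phgdh, Slc7a11, Mthfd2 and Stc2, with log2 differences between 0.39 for Stc2 and 1.82 for Nupr1. They include the first enzymes of serine synthesis (Phgdh and Psat1) and carriers of cationic amino acids, large neutral amino acids and cystine (Slc7a1, Slc7a5 and Slc7a11). Several were dim: Slc7a11 averaged 3.77 in NEMO/JNKΔhepa livers against 3.14 in livers labelled control, Stc2 4.31 against 3.92, Psat1 5.07 against 3.85 and Phgdh 5.27 against 4.32. Those control means lay below the lowest array median of 4.52. With only genes above the median level tested, 8 targets were called higher and 1 lower. Cebpg, which encodes a dimer partner of ATF4, fell by 0.51 on the log2 scale (limma adjusted p = 0.0141).

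The counts of the next lists stand beside 13.6% of all genes called higher and 7.90% lower, and a median of -0.045 over all genes. Of the aminoacyl-tRNA synthetases that ATF4 is known to raise, 0 of 10 measured rose and 3 fell, with a median of -0.03. These were Tars (log2 difference -0.71, limma adjusted p = 0.0141), Cars (-0.52, 0.0218) and Yars (-0.45, 0.0234), the synthetases for threonine, cysteine and tyrosine. Of 15 ER chaperones and folding enzymes 0 rose and 3 fell, with a median of -0.34. Hyou1, a large chaperone that works with BiP, read 9.14, 8.47 and 8.92 in NEMO/JNKΔhepa livers, against 9.93, 9.36 and 9.51 in livers labelled control (log2 difference -0.75, limma adjusted p = 0.0304). Manf, a secreted ER stress protein (-0.58, limma adjusted p = 0.0291), and Dnajb9, a co-chaperone of BiP (-0.52, limma adjusted p = 0.0312), were the other 2. The number of chaperones called lower changed when 1 liver was left out, in fits that also have fewer arrays. It then lay between 0 and 3, and it was 0 without control liver 1 or 3 or NEMO/JNKΔhepa liver 2 or 3.

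Of 15 genes of ER-associated degradation and translocation 1 rose and 4 fell, beside 13.6% and 7.90% of all genes. The list's median was -0.16. Sel1l, the scaffold of the ubiquitin ligase HRD1, fell by 0.59, Syvn1, which encodes HRD1 itself, fell by 0.67 and Edem1, a mannosidase-like factor that marks misfolded glycoproteins, fell by 0.45 on the log2 scale (limma adjusted p = 0.0128, 0.027 and 0.026). Derl2, a channel subunit, was the other that fell (-0.53) and its relative Derl1 the 1 that rose (0.39), both named after their values were seen. The number called lower lay between 1 and 3 without 1 liver at a time. Of 10 sensors, eIF2alpha kinases and related factors 0 passed, with a median of -0.10, and the nearest were Wfs1 (-0.34, limma adjusted p = 0.0851) and Ern1, which encodes the sensor IRE1alpha (-0.38, limma adjusted p = 0.132).

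The last 2 lists surround Creb3l3 and Fgf21, and are read beside 13.6% of all genes called higher and 7.90% lower. Among 10 genes of the CREB3 family and liver targets of Creb3l3, with a median of 0.35, Apoa4 (log2 difference 1.06, limma adjusted p = 0.000857) and Apoc2 (0.69, 0.0135) rose. Both are apolipoproteins. Crp, an acute phase protein, fell by 0.92 on the log2 scale (limma adjusted p = 0.00485). Fgf21 is also a target of the fatty acid receptor PPARalpha. Of 9 other PPARalpha-linked genes Pdk4, a kinase that turns off pyruvate dehydrogenase, fell by 1.18 and Fgfr1, a receptor for FGF21, rose by 0.65 on the log2 scale (limma adjusted p = 0.00309 and 0.00866), and the list's median was -0.21. The lists were chosen with earlier results of these data known, and no test of a list as a whole was made.

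**Figure D3:**
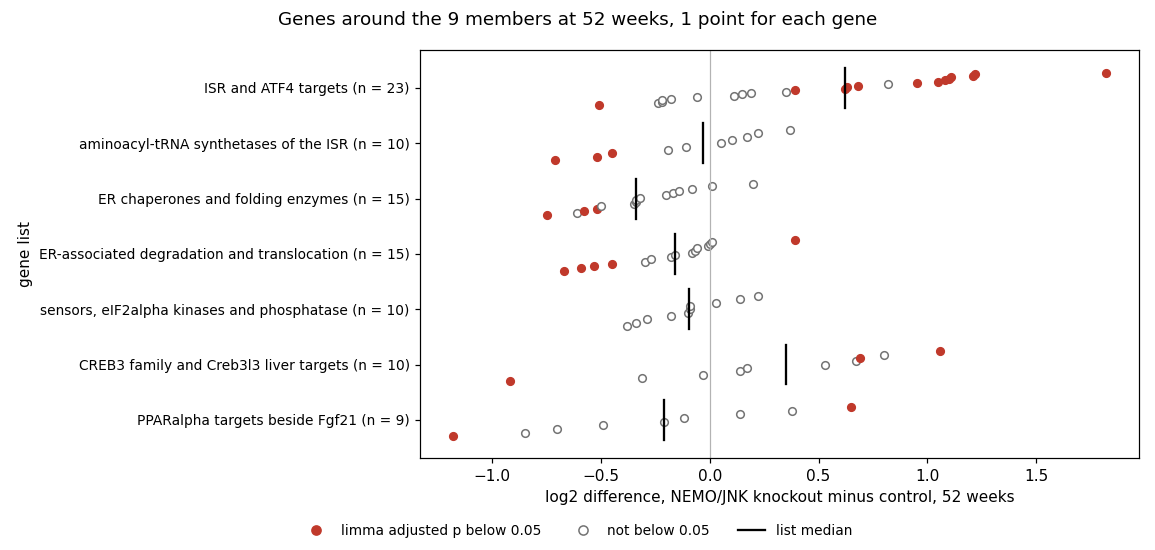
Log2 differences at 52 weeks (NEMO/JNKΔhepa minus control) of the genes of 7 lists, 1 point for each gene, filled in red past a limma adjusted p of 0.05, with a bar at each list's median. Targets of the integrated stress response lie to the right with a median of 0.62, and ER chaperones to the left with a median of -0.34.

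Markers of several other cell types also differed in these livers. All 7 measured biliary markers rose at 52 weeks with a median log2 difference of 3.60, and their mean level was 8.13 to 8.69 in NEMO/JNKΔhepa livers and 4.91 to 5.47 in livers labelled control. Of the macrophage markers 7 of 8 rose, of T and NK cell markers 5 of 6 and of plasma and B cell markers 4 of 7. Of all genes 13.6% were called higher and 7.90% lower. Of 8 stellate cell and fibroblast markers 0 rose and 1 fell, and of 6 endothelial markers 1 rose and 1 fell. Of 4 measured exocrine pancreas markers 0 passed. The plasma and B cell markers averaged 6.67 to 7.13 in NEMO/JNKΔhepa livers and 5.0 to 6.26 in livers labelled control. Of the 8 hepatocyte markers 0 passed, with mean levels of 12.30 to 12.40 in NEMO/JNKΔhepa livers and 12.18 to 12.47 in livers labelled control. In a piece of whole liver, fewer cells of a type and less RNA per cell cannot be told apart, and the part of other cell types in these differences was not tested.

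After diethylnitrosamine, the levels of all 9 genes overlapped between JNKΔhepa livers and livers labelled control, and 0 of 9 passed, as did 0 of all genes (0%). At an unadjusted p under 0.05 the count of members was also 0. Groups without overlap were found for 9.47% of all genes. Fgf21 had the largest difference, with 7.79, 8.81 and 6.54 in JNKΔhepa livers, against 7.15, 6.57 and 5.29 in livers labelled control. The difference of 1.38 (SE 0.66, limma adjusted p = 0.985) was in size like that at 52 weeks, but its error was larger and the groups overlapped, with livers spread between 6.54 and 8.81 in the JNKΔhepa group and between 5.29 and 7.15 in the group labelled control.

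JNKΔhepa liver 2 stood apart from its group in several genes. Asns was at 4.73, 8.56 and 4.62 in JNKΔhepa livers, against 4.36, 6.59 and 5.78 in livers labelled control, and liver 2 held the high value. Trib3 was at 5.26, 6.22 and 4.93 in JNKΔhepa livers, against 5.55, 6.30 and 6.16 in livers labelled control (log2 difference -0.54, SE 0.36, limma adjusted p = 0.985), again with liver 2 highest of its group. The mean of the 23 targets of the integrated stress response was 6.80 in that liver, above all 23 other livers, and its biliary markers averaged 7.50, against 5.35 and 6.25 in the other JNKΔhepa livers. Without it the differences were 0.83 for Fgf21 (SE 0.58), -0.90 for Asns (SE 0.58) and -0.91 for Trib3 (SE 0.25), each with a limma adjusted p of 0.961. For Asns the sign turned, from the 0.40 (SE 1.11) of all 6 livers.

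Hspa5 was at 11.85, 11.22 and 11.40 in JNKΔhepa livers, against 11.19, 11.26 and 11.22 in livers labelled control (log2 difference 0.26, SE 0.18, limma adjusted p = 0.985). JNKΔhepa liver 1 was the high one, and it also had the highest mean of the 15 chaperones in its pair, at 9.82. Atf4 (0.16), Creb3l3 (0.17), Herpud1 (-0.09), Xbp1 (-0.18) and Chac1 (-0.24) had limma adjusted p of 0.985 to 0.988. None of the 7 lists had a called gene. The nearest were the chaperone-associated Sdf2l1 (0.57, SE 0.16, limma adjusted p = 0.985) and Creld2 (0.66, SE 0.23, limma adjusted p = 0.985), a stress-induced ER protein.

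After bile duct ligation 1 of the 9 genes passed, Fgf21, beside 1.35% of all genes. It rose to 2.18 times the level in ligated livers labelled control. Fgf21 read 6.66, 6.88 and 7.06 in JNKΔhepa livers, against 5.99, 5.70 and 5.55 in livers labelled control. The groups did not overlap and were tight, with a log2 difference of 1.12 (SE 0.15, limma adjusted p = 0.0163). The call was lost with 1 variance over all 24 arrays (limma adjusted p = 0.478) and without JNKΔhepa liver 1, 2 or 3 (0.0505, 0.0966 and 0.0704). Of the livers labelled control, 2 came from another series of mouse identifiers than the rest. With that series as a block the difference was 1.31 (SE 0.20, limma adjusted p = 0.0486), and within the shared series the control liver read 5.55, below the 3 JNKΔhepa livers.

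Hspa5 also had no overlap after ligation, with 11.28, 11.30 and 11.47 in JNKΔhepa livers, against 11.26, 11.22 and 11.26 in livers labelled control, but by a small margin (log2 difference 0.10, SE 0.10, limma adjusted p = 0.702). Groups without overlap made up 20.7% of all genes there. Trib3 was at 4.91, 5.51 and 5.81 in JNKΔhepa livers, against 5.06, 4.59 and 5.39 in livers labelled control (0.40, SE 0.27, limma adjusted p = 0.566). Asns was high on both sides, with 8.30, 8.03 and 8.15 in JNKΔhepa livers, against 7.48, 8.94 and 8.17 in livers labelled control (-0.04, SE 0.32, limma adjusted p = 0.976). Creb3l3 was at 8.94, 9.04 and 9.08 in JNKΔhepa livers, against 9.25, 9.77 and 9.05 in livers labelled control (-0.33, SE 0.18, limma adjusted p = 0.465), and the series block left a difference of -0.03. Herpud1 (-0.28), Xbp1 (-0.23), Atf4 (0.10) and Chac1 (0.02) did not pass either.

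Among the lists after ligation, Mthfd2, a mitochondrial folate enzyme and ATF4 target, rose in JNKΔhepa livers (log2 difference 0.81, SE 0.13, limma adjusted p = 0.0272), with 5.86, 6.02 and 5.78 there, against 5.27, 4.94 and 5.0 in livers labelled control. Sdf2l1 rose by 1.46 (SE 0.27, limma adjusted p = 0.0494), with 8.30, 8.42 and 8.81 in JNKΔhepa livers, against 6.89, 6.59 and 7.66 in livers labelled control. It was the 1 called of 15 chaperones, of which 14 had a positive difference, with a median of 0.29 against -0.002 for all genes. That count leaves the mouse series out of account. The mean of the 15 was 9.09 and 9.03 in control livers 1 and 2, of the other series, and 9.30 in control liver 3. In JNKΔhepa livers it was 9.44, 9.52 and 9.65. Crp rose by 0.76 and Cidec, a lipid droplet protein, fell by 0.83 on the log2 scale (limma adjusted p = 0.0275 and 0.026). Of the lists with 0 called genes, those of the sensors, of degradation and of the synthetases came nearest to the threshold with Eif2ak3, which encodes PERK (-0.49, limma adjusted p = 0.0764), Derl1 (0.44, limma adjusted p = 0.0888) and Gars, the glycine synthetase (-0.42, limma adjusted p = 0.0966). All 7 biliary markers had positive differences there, with a median of 0.82 and 0 called, and their part was not tested. With the series of mouse identifiers as a block, none of the 4 called list genes passed: the difference was 0.85 for Sdf2l1 (SE 0.23, limma adjusted p = 0.189), 0.88 for Mthfd2, 0.83 for Crp and -0.63 for Cidec (limma adjusted p = 0.11, 0.107 and 0.151).

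**Figure D4:**
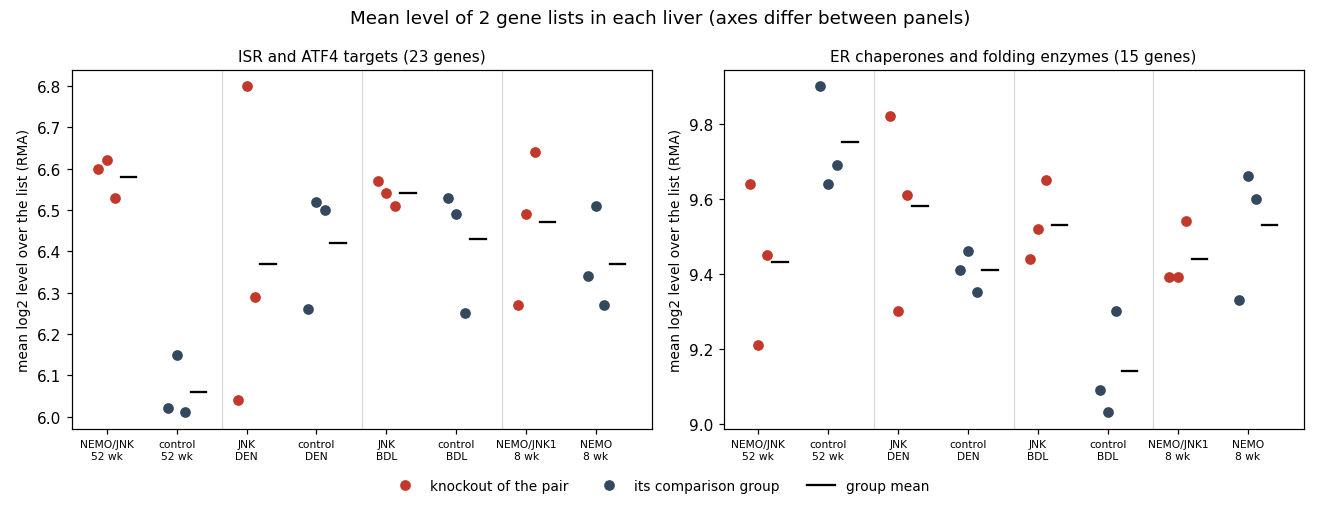
Mean log2 level, in each liver, of the 23 measured targets of the integrated stress response and ATF4 (left) and of the 15 ER chaperones and folding enzymes (right), with each knockout group in red left of its comparison group in blue and a bar at each group mean. On the left the NEMO/JNKΔhepa livers, at 6.53 to 6.62, lie above the 52-week livers labelled control, at 6.01 to 6.15, and JNKΔhepa liver 2 after diethylnitrosamine is the highest at 6.80. On the right the ligated livers labelled control are the lowest group, with 9.03 to 9.30.

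Whether the difference between JNKΔhepa livers and livers labelled control changed between the 2 injuries was tested as an interaction. In it 0 of 9 genes and 0.0478% of all genes passed. The Mapk9 signal was low on both sides of these pairs, so the contrast does not read a loss of Mapk9. Trib3 had the largest value, 0.93 higher under ligation (SE 0.49, limma adjusted p = 0.745). For Fgf21 the differences of 1.12 under ligation and 1.38 under diethylnitrosamine were -0.25 apart (SE 0.74, limma adjusted p = 0.959), and the error does not bound that value tightly. At an unadjusted p under 0.05 the count of members was also 0.

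At 8 weeks 0 of 9 genes passed between livers labelled NEMO/JNK1Δhepa and livers labelled NEMO knockout, as did 0% of all genes, and 2 members had an unadjusted p under 0.05. Creb3l3 was at 9.10, 8.71 and 9.17 in NEMO/JNK1Δhepa livers, against 9.47, 9.91 and 9.50 in livers labelled NEMO knockout. The groups did not overlap, with a log2 difference of -0.63 (SE 0.19, limma adjusted p = 0.602). Herpud1 was at 10.36, 10.21 and 10.20 in NEMO/JNK1Δhepa livers, against 10.97, 10.36 and 11.04 in livers labelled NEMO knockout (-0.54, SE 0.20, limma adjusted p = 0.624) with groups that met at 10.36 to the second decimal. Xbp1 was at 9.71, 9.78 and 9.98 in NEMO/JNK1Δhepa livers, against 9.58, 9.50 and 9.56 in livers labelled NEMO knockout (0.28, SE 0.12, limma adjusted p = 0.647), without overlap. Groups without overlap were found for 14.4% of all genes.

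Fgf21 did not separate the 8-week groups, with 7.29, 6.92 and 6.77 in NEMO/JNK1Δhepa livers, against 7.39, 7.70 and 5.63 in livers labelled NEMO knockout (0.08, SE 0.52, limma adjusted p = 0.976). Trib3 was at 5.52, 5.26 and 6.37 in NEMO/JNK1Δhepa livers, against 5.72, 6.64 and 5.44 in livers labelled NEMO knockout (-0.22, SE 0.39, limma adjusted p = 0.9). Asns was at its lowest here, with 4.43, 4.32 and 4.32 in NEMO/JNK1Δhepa livers, against 4.09, 4.0 and 5.25 in livers labelled NEMO knockout (-0.09, SE 0.33, limma adjusted p = 0.956). Atf4 (0.20), Chac1 (0.17) and Hspa5 (-0.13) had limma adjusted p of 0.778 to 0.875. None of the 7 lists had a called gene, and the nearest targets of ATF4 were Pck2 (0.61, limma adjusted p = 0.602) and Cth, a cysteine-producing enzyme (-0.71, limma adjusted p = 0.602). The NEMO mice came from another series of identifiers than the NEMO/JNK1Δhepa mice, so series and genotype cannot be told apart at this age.

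Of the 9 members, Asns had the largest difference between ligated and diethylnitrosamine-treated livers, though it did not pass. JNKΔhepa liver 2 after diethylnitrosamine, at 8.56, lay among the ligated livers. In the 3 livers labelled control it was at 7.48, 8.94 and 8.17 after ligation, against 4.36, 6.59 and 5.78 after diethylnitrosamine, without overlap, beside 24.9% of all genes. The log2 difference was 2.62 (SE 0.57), which is 6.15-fold, with a limma adjusted p of 0.06 beside 2.48% of all genes called. In JNKΔhepa livers it was at 8.30, 8.03 and 8.15 after ligation, against 4.73, 8.56 and 4.62 after diethylnitrosamine (2.19, SE 0.99, limma adjusted p = 0.409), where 1.08% of all genes were called. Liver 2 of the diethylnitrosamine group set that overlap: without it the difference was 3.48 (SE 0.13, limma adjusted p = 0.000787), where 7.05% of all genes were called. That liver was singled out by its own Asns value. The small error and p without it follow from leaving it out and are no support for a difference. In that fit Creb3l3 also passed (-0.58, limma adjusted p = 0.0434), against -0.42 (SE 0.16, limma adjusted p = 0.33) with all livers.

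Trib3 ran the other way in livers labelled control, with 5.06, 4.59 and 5.39 after ligation, against 5.55, 6.30 and 6.16 after diethylnitrosamine (-0.99, SE 0.26, limma adjusted p = 0.0931). The 2 ATF4 targets thus had differences of opposite sign between the same livers. With the mouse series as a block the values were 2.59 for Asns and -0.62 for Trib3 (limma adjusted p = 0.434 and 0.647). Herpud1 read 10.70, 10.33 and 10.61 in JNKΔhepa livers after ligation, against 11.20, 10.90 and 11.10 after diethylnitrosamine, a difference of -0.52 (SE 0.14, limma adjusted p = 0.178). It and Creb3l3 were the 2 members whose JNKΔhepa groups did not overlap, beside 19.9% of all genes. In livers labelled control Herpud1 differed by -0.32 (SE 0.14, limma adjusted p = 0.25). Of the 23 other targets of the integrated stress response 1 was called, Ddit4, an inhibitor of mTORC1, which rose after ligation in JNKΔhepa livers (2.44, SE 0.16, limma adjusted p = 0.0062). Stellate cell and fibroblast markers had a median difference of 2.01 in JNKΔhepa livers and 1.95 in livers labelled control. Of these 8 markers 4 and 6 were called higher, beside 1.08% and 2.48% of all genes called. The injuries also differ in duration, and their part in these differences cannot be told apart.

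Of the 9 PPARalpha-linked genes 3 fell after ligation in JNKΔhepa livers and 2 in livers labelled control, beside 1.08% and 2.48% of all genes called, while Fgf21 did not pass. In JNKΔhepa livers Acot1 (-1.72), Vnn1 (-2.22) and Cyp4a14 (-2.45) fell after ligation (limma adjusted p = 0.00744, 0.0172 and 0.0376), and in livers labelled control Vnn1 (-2.38) and Klb (-0.93), the co-receptor of FGF21, fell (limma adjusted p = 0.0266 and 0.047). Fgf21 differed by -0.85 (SE 0.51, limma adjusted p = 0.547) in JNKΔhepa livers and by -0.59 (SE 0.42, limma adjusted p = 0.493) in livers labelled control. Derl3, a degradation factor, fell by 1.48 on the log2 scale after ligation in livers labelled control (limma adjusted p = 0.0107). Gars rose there by 0.55 (SE 0.11, limma adjusted p = 0.0494), and Apcs, serum amyloid P component, rose by 1.85 after ligation in JNKΔhepa livers (SE 0.16, limma adjusted p = 0.0107). The number of calls in JNKΔhepa livers changed when 1 liver was left out, in fits that also have fewer arrays. Of all genes 204 were called, against 10, 16 and 3 without ligated liver 1, 2 or 3, and 97 to 1326 without 1 diethylnitrosamine liver. In livers labelled control the calls of this contrast rested on the comparison without the mouse series: with it as a block 15 of all 18820 genes passed, against 466, and none of Vnn1, Klb, Derl3 and Gars did (log2 differences -2.12, -1.23, -1.31 and 0.59, limma adjusted p = 0.34, 0.183, 0.166 and 0.364).

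The genes nearest to each member in level over the 24 livers were found by Pearson correlation, given as a description since the livers share groups. Predicted genes, clone names, olfactory and vomeronasal receptors and small RNA genes were left out of that search by their names. Hspa5 lay nearest to the stress-induced ER protein Creld2 and the cytosolic chaperone Hsp90aa1 (r = 0.85 for both). Trib3 lay nearest to Apoc2 and Peg3 (r = 0.78), and Asns to Col6a2, a collagen, and Ranbp17 (r = 0.83). Fgf21 was nearest to Lag3 (r = 0.73) and Cenps (r = 0.71), and it was itself the second nearest to Atf4 (r = 0.66), after Nfxl1. Xbp1 lay nearest to Tacc1 (r = 0.79), Chac1 to Ptpn3 (r = 0.76), Creb3l3 to Tysnd1 (r = 0.84) and Herpud1 to Gsdma2 (r = 0.84), whose mean level of 2.52 was near the bottom of the scale.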

How the data were processed

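The authors deposited log2 expression values for 35556 probe sets on 24 arrays, made with RMA per the submitters' processing notes. Neither the RMA program nor the chip definition is named in the sources used here. RMA sets the arrays' distributions alike, so that differences are relative to other genes. Of the probe sets, 21218 have 1 gene symbol, 1881 have several and 12457 have none; those with 1 symbol gave 18820 genes. No detection calls were used, and precision is limited by the 3 arrays of each group.

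Each comparison of a pair of groups was fitted on its own 6 arrays with limma 3.58.1 in R 4.3.3, without a filter, two-sided, and Benjamini-Hochberg adjusted over all 18820 genes, with calls at an adjusted p under 0.05. The 4 knockout comparisons were followed by an interaction and by ligation against diethylnitrosamine in each genotype, 7 in all; comparisons after injury share arrays. A rank or permutation test of 3 against 3 cannot give an exact p below 0.1, so single-gene p-values are limma's. The mice were separate animals.

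Members and lists were chosen with earlier results of these data known. Named genes were all members, up to 3 called genes of each list by smallest p (at most 2 as values where none was called), the targeted genes, and the 2 nearest genes of each member. Same-numbered livers deviated together with r between -0.07 and 0.36 in the knockout comparisons, so the numbers were not taken as pairs. The fits were tested on simulated data. Alternatives were centring, quantile normalisation, a filter on dim genes, 1 fit of all arrays, array weights, means over probe sets, the replicate block, the series of mouse identifiers as a block and leaving out each liver.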

Additional observations from a re-analysis of the deposited data

Results flagged for a closer look

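The probe set shared by Mars1 and Ddit3 entered no comparison, and at 52 weeks its signal was higher in all NEMO/JNKΔhepa livers than in those labelled control. It read 7.02, 6.32 and 6.42 in NEMO/JNKΔhepa livers (mean 6.59), against 5.82, 6.19 and 6.12 in livers labelled control. The probe set that belongs to Mars1 alone, the methionine synthetase, did not share that order, with 7.77, 7.97 and 7.84 in NEMO/JNKΔhepa livers, against 7.98, 8.10 and 8.08 in livers labelled control. Which of the genes gave the shared signal was not tested, and groups without overlap made up 41.2% of all genes there. Groups of 3 livers are too small for a check of single outlying livers.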

How the results depend on the processing

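With each array centred on its median over the tested genes, 7 of the 9 genes passed at 52 weeks, and 12 chaperones and 11 degradation genes were called lower, against 3, 3 and 4 as deposited, and 9 targets of the integrated stress response were called higher and 6 lower, while 55.9% of all genes were called. Quantile normalisation left 1 chaperone, 2 degradation genes and 0 members called lower (Herpud1, limma adjusted p = 0.135). With all 24 arrays fitted together, 6 targets of the integrated stress response were called higher, against 12, and 0 members passed after ligation. The replicate block, whose numbers do not pair the livers, gave 0 members after ligation (Fgf21, limma adjusted p = 0.0774), removed Herpud1 at 52 weeks (limma adjusted p = 0.052) and gave 1 member, Asns (limma adjusted p = 0.0138), for ligation against diethylnitrosamine in livers labelled control. Array weights gave 3 members for that contrast in JNKΔhepa livers and 1 in livers labelled control, beside 13.2% and 4.42% of all genes. Without 1 liver at a time, 2 to 3 members passed at 52 weeks, 0 to 1 after ligation, 0 to 2 for ligation against diethylnitrosamine in JNKΔhepa livers and 0 in the other comparisons, with 10 to 11 targets called higher, 0 to 3 chaperones and 1 to 3 degradation genes called lower. The list counts under these settings were added after the data were seen. Of 900 member values under the alternatives, 13 lost and 12 gained a call, and 0 of the called ones reversed. Only results called in the main fits could lose a call, 3 at 52 weeks and 1 after ligation. The 13 losses are thus not a share of the 900. Among uncalled values, 71 changed sign and 16 moved by at least the pooled SD between livers. The series block could not be fitted for JNKΔhepa livers alone, all of 1 series, or at 8 weeks. Precision differed between groups: the SE of the Fgf21 difference was 0.66 after diethylnitrosamine, 0.19 at 52 weeks and 0.15 after ligation. The series block for the lists was added after the data were seen.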
